A study of Mus musculus with 10 samples.

Results

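The inflammasome genes described here are 10 rows of a table of 55453 genes, chosen by symbol: the sensors *Nlrp3*, *Nlrp1b*, *Nlrc4* and *Aim2*, the adaptor *Pycard*, the caspases *Casp1* and *Casp4*, the pore protein *Gsdmd*, and the cytokines *Il1b* and *Il18*. Each symbol matched 1 row, and none of the 10 was lost to the filter on low counts. Reads were counted in microglia (CD45int CD11b+) sorted from the hippocampi of female 3xTg mice, a transgenic model of Alzheimer's disease, older than 15 months at the time given by the labels. All animals carried the transgenes and no wild-type group was used. The 5 PBS libraries came from mice injected with PBS, and the 5 GA libraries from mice that received glatiramer acetate (GA), a mixture of random peptides used as a treatment of multiple sclerosis, at a weekly dose of 0.1 mg for 8 weeks. In the library titles, all PBS libraries carry the prefix 388 (388_1 to 388_5), 2 GA libraries the prefix 394 (394_1 and 394_2) and 3 GA libraries the prefix 400 (400_1 to 400_3). The labels do not say what the prefix stands for. No prefix holds both treatments, so the prefix and GA cannot be told apart.

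An inflammasome is a protein platform that innate immune cells assemble when a sensor meets a danger or microbial signal. The sensor recruits the adaptor ASC, the product of *Pycard*, which gathers caspase-1. Caspase-1 then cuts the precursors of IL-1β and IL-18 and the pore protein gasdermin D, through which the cytokines leave the cell. In microglia the NLRP3 inflammasome is known for its response to amyloid, and because assembly and cleavage act on proteins, transcript levels report the supply of the parts and not the activity of the platform.

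Total counts ran from 32332185 to 38764643 per library. The 10 microglial markers, including *P2ry12*, *Tmem119* and *Cx3cr1*, summed to 56188 to 66373 CPM (counts scaled to the library size, after TMM normalization) in the PBS libraries and 57205 to 62012 CPM in the GA libraries. Markers of other cells were far lower. Summed markers reached at most 2.29 CPM for lymphocytes, 2.02 CPM for neurons, 90.9 CPM for monocytes, 75.9 CPM for endothelial cells, 113 CPM for oligodendrocytes, 258 CPM for border-associated macrophages, 353 CPM for astrocytes and 446 CPM for neutrophils. No marker in these lists was at 0 in every library. The neutrophil sum, over 10 genes, ran from 37.9 to 446 CPM in PBS and from 10.9 to 169 CPM in GA (p = 0.0794, two-sided exact permutation test, n = 5 and 5). In a bulk library, fewer cells of a type and less RNA per cell cannot be told apart. Nothing in the labels ties a library to a named animal, so p-values measure the spread between these libraries.

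Promoter sequences of 9 of the 10 genes were found in the RefSeq table of the build GRCm38.p6, with 12 start sites in all (no entry for *Gsdmd*). Each window of 250 bases before to 50 bases after the start was searched on both strands for 6 motifs. The 250 bases before the start are shown, 5′ to 3′ on the strand of the gene, for 4 genes: *Nlrp3* and *Pycard*, which lay on opposite sides of the PBS libraries in the GA libraries of different prefix, *Il1b*, which had the widest range over libraries of the genes other than the sparsely counted *Nlrc4*, and *Casp4*, the only gene with NF-kB matches. Capitals mark motif matches.
Nlrp3: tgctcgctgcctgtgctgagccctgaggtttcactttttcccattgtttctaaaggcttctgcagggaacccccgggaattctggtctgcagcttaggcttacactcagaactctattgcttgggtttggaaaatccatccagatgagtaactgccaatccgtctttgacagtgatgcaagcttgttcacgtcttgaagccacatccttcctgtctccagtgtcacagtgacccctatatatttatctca
Pycard: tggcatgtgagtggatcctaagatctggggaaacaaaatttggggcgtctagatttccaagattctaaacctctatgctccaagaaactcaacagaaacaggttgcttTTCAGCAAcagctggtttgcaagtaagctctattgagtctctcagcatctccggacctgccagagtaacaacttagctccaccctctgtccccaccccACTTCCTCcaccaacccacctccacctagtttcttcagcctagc
Il1b: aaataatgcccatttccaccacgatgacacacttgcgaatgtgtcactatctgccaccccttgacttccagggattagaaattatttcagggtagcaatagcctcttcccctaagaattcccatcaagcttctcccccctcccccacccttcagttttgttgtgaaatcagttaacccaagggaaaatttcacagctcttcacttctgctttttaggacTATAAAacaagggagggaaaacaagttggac
Casp4: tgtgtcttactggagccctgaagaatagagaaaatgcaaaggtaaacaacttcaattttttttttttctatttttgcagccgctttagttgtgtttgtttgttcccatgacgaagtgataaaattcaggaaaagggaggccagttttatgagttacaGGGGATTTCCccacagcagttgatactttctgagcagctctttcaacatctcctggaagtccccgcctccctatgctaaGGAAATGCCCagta
The *Nlrp3* stretch lies at chr11:59541319-59541568 on the plus strand and holds none of the 6 motifs, nor does the window of its other RefSeq start. The *Pycard* stretch, chr7:127993868-127994117 on the minus strand, holds a PU.1 match (GAGGAAGT) that begins 44 bases before the start and a C/EBP match (TTGCNNAA) 142 bases before it. Both read on the strand opposite to the one shown. The *Il1b* stretch, chr2:129371140-129371389 on the minus strand, holds a TATA box (TATAAA) 31 bases before the start. The *Casp4* stretch, chr9:5308599-5308848 on the plus strand, holds NF-kB matches (GGG, any 2 bases, then TTTCC) at 93 and 14 bases before the start. The match at 14 bases reads on the strand opposite to the one shown. Of all 32851 promoter windows, 3.2% hold the PU.1 letters, 10.8% the C/EBP letters, 13.6% the TATA letters and 1.63% the NF-kB letters. The other motifs searched were AP-1 (TGANTCA, in 7.81% of all windows and in none of these 12) and the core of the glucocorticoid receptor site (AGAACA, in 19% of all windows), which matched in *Casp1*, *Il18* and 1 of the starts of *Nlrp1b*. PU.1 letters also stand in the windows of *Aim2* and *Nlrp1b*, C/EBP letters in those of *Nlrp1b* and *Nlrc4*, and TATA letters in that of *Il18*. A match is a description of letters and not evidence of binding.

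Compared per length, as CPM per kilobase of merged exons (GENCODE M21), the pore protein and its protease led the order. *Gsdmd* had the highest level, 110.6 ± 20.96 CPM per kb (SD, n = 10), followed by *Casp1* at 51.4 ± 7.59 CPM per kb and *Pycard* at 36.4 ± 4.04 CPM per kb. *Il18* (25.0 ± 1.72), *Nlrp3* (21.8 ± 6.20) and *Aim2* (18.2 ± 2.187 CPM per kb) formed a middle group. The range of *Nlrp3* overlapped those of *Il18* (22.7 to 27.9) and *Aim2* (14.7 to 21.7), which did not overlap each other. *Il1b* stood at 12.95 ± 4.83 CPM per kb, *Casp4* at 4.46 ± 0.482 and *Nlrp1b* at 3.18 ± 0.779 CPM per kb. *Nlrc4*, the sensor that works with NAIP proteins on bacterial flagellin, was lowest at 0.152 ± 0.0785 CPM per kb, from 8 to 48 counts per library. *Gsdmd* exceeded *Casp1*, *Casp1* exceeded *Pycard* and *Pycard* exceeded *Il18* in all 10 libraries, although only between *Pycard* and *Il18* did the ranges over libraries not overlap. *Il18* was above *Nlrp3* in 7 of 10 libraries and *Nlrp3* above *Aim2* in 7, so these neighbours were not separated by their spread. The place of *Nlrp3* differed by title prefix. It was 34.4 and 26.0 CPM per kb in GA 394, above *Il18* in both, and 13.6 to 15.9 CPM per kb in GA 400, the 3 libraries in which *Aim2* was above it. With the length of the longest transcript in place of merged exons, *Aim2* (22.4 CPM per kb) and *Nlrp3* (22.0 CPM per kb) changed places. The same setting raised *Casp4* to 8.70, *Nlrp1b* to 4.64, *Il1b* to 18.2, *Il18* to 29.1 and *Gsdmd* to 147 CPM per kb, with no other change of place.

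**Figure D1:**
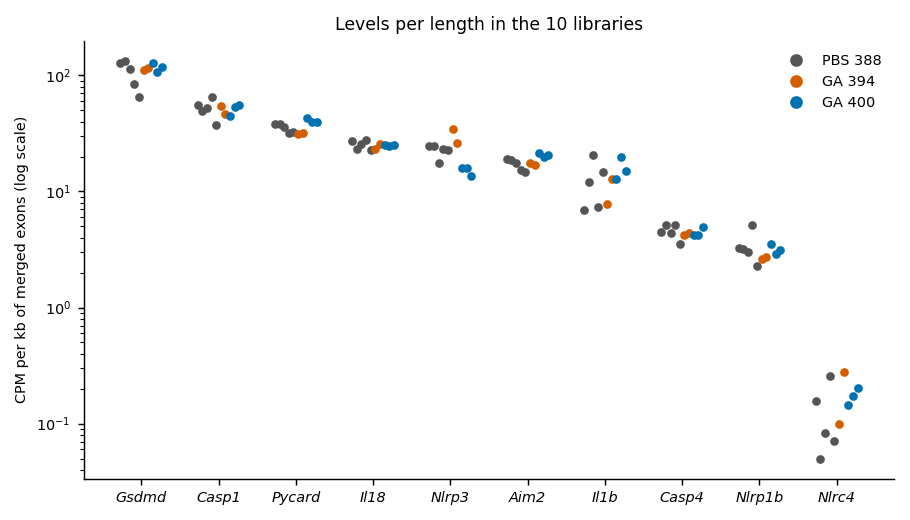
Levels of the 10 inflammasome genes in each of the 10 libraries, as CPM per kb of merged exons on a log axis, with genes in order of their mean and 1 point per library (PBS 388 grey, GA 394 orange, GA 400 blue). *Gsdmd* lies between 65.2 and 134 CPM per kb and *Nlrc4* between 0.0497 and 0.280 CPM per kb.

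The first question was whether the inflammasome genes differed between microglia of GA- and PBS-treated mice. None of the 10 differed by edgeR's quasi-likelihood test at an adjusted p of 0.05, where 0% of the 14481 genes tested did. None had an unadjusted p under 0.05 (5.75% of all genes tested), and the libraries of the treatments overlapped for every one of them (0.891% of all genes tested did not overlap). Leaving out 1 library brought *Aim2* to an unadjusted p of 0.0482 in edgeR without 388_1 and 0.0401 without 394_2, and *Nlrc4* to 0.0470 without 388_4, with adjusted p-values of 0.828, 0.699 and 0.998. In the fit, 5 of the 10 were higher in GA and 5 lower, with a median log2 fold change of 0.02 beside 2.0e-04 over all genes tested. Two-sided exact permutation tests of the single genes gave unadjusted p-values from 0.119 for *Aim2* to 0.944 for *Casp1*, where the smallest p possible is 0.00794. The intervals set how large a change could have passed unseen. They were narrowest for *Il18* (-0.22 to 0.15 on the log2 scale) and widest for *Nlrc4* (-0.47 to 1.56).

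**Figure D2:**
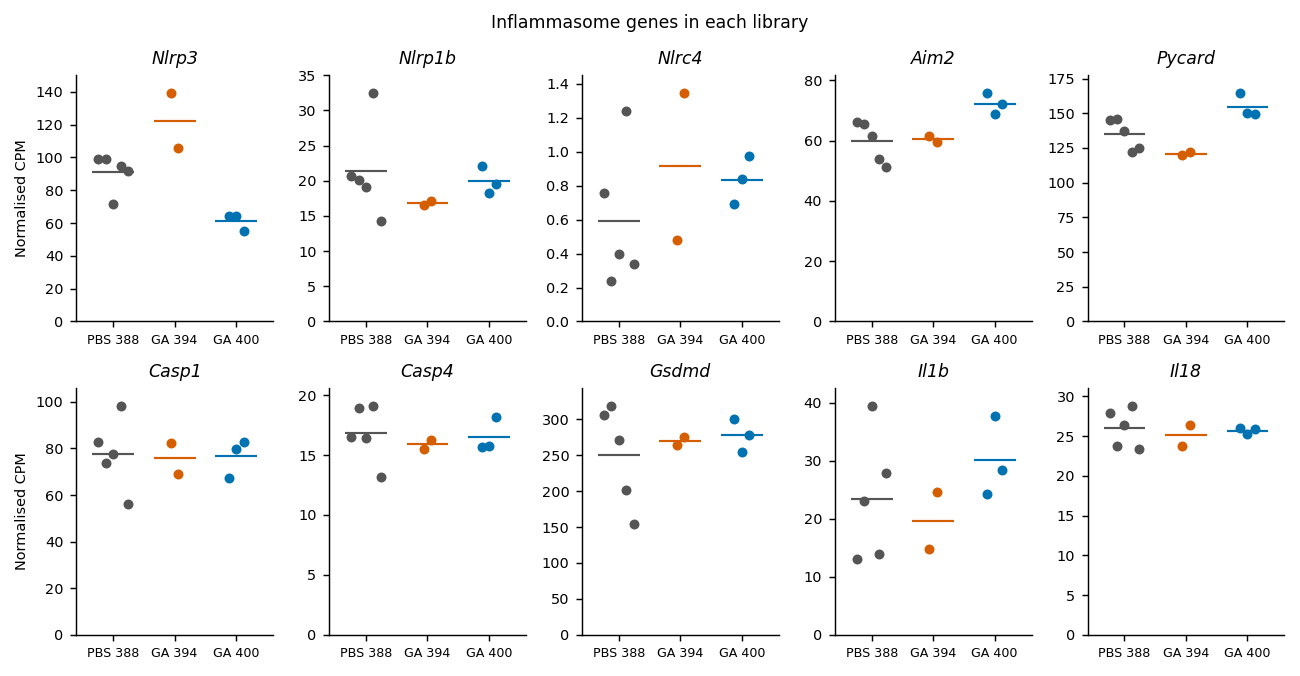
Normalised CPM of each gene (y axis, linear from 0) in the libraries of each title prefix, with points for libraries and a line at the mean of the 5 PBS, 2 GA 394 and 3 GA 400 libraries. In *Nlrp3* the GA 394 libraries lie above all PBS libraries and the GA 400 libraries below them, from 55.3 to 64.6 CPM.

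Among the sensors, *Nlrp3*, which responds to potassium efflux and to particles such as amyloid, is located at chr11:59541568-59566956 (GRCm38, plus strand, 11 merged exons). Its level was 99.1, 99.1, 71.4, 94.97 and 91.9 CPM in PBS libraries 388_1 to 388_5, 139 and 106 CPM in 394_1 and 394_2, and 64.6, 64.6 and 55.3 CPM in 400_1 to 400_3. The GA libraries were thus the highest and the lowest of the series, with the PBS libraries between them. The means were 91.3 ± 11.5 CPM in PBS and 85.9 ± 35.7 CPM in GA (SD, n = 5 each), a log2 fold change of -0.09 with a standard error of 0.21 (edgeR adjusted p = 0.9755). It was -0.33 without 394_1 and -0.17 without 394_2, and turned positive without any 1 GA 400 library (0.0043 to 0.036).

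*Aim2*, a sensor of double-stranded DNA in the cytosol (chr1:173350879-173466040, plus strand), stood at 66.2, 65.4, 61.6, 54.0 and 51.4 CPM in PBS, 61.4 and 59.4 CPM in GA 394, and 75.8, 68.8 and 72.2 CPM in GA 400. All 3 GA 400 libraries exceeded every other library. Its treatment means were 59.7 ± 6.71 and 67.5 ± 6.997 CPM, with a log2 fold change of 0.18, a standard error of 0.09 and an adjusted p of 0.894 in edgeR.

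*Nlrp1b*, the sensor that is cleaved by anthrax lethal factor (chr11:71153102-71230733, minus strand), ranged from 14.3 CPM in 388_5 to 32.5 CPM in 388_4, both PBS libraries, while the GA libraries lay between 16.5 and 22.1 CPM. It has near copies in *Nlrp1a* and *Nlrp1c-ps*, among which reads could be split, so its level is uncertain. *Nlrc4* ranged from 0.239 to 1.24 CPM in PBS and from 0.479 to 1.35 CPM in GA (log2 fold change 0.54, standard error 0.47, edgeR adjusted p = 0.928). Leaving out 1 library moved this fold change from 0.33 (without 394_2) to 0.99 (without 388_4).

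The adaptor *Pycard* (chr7:127989708-127993867, minus strand, 3 merged exons) stood at 145, 146, 137, 122 and 125 CPM in PBS, 120 and 122 CPM in GA 394, and 165, 150 and 150 CPM in GA 400. Its GA 400 libraries were above every PBS library and its GA 394 libraries below every one. The treatment means were 135 ± 11.2 and 141 ± 19.5 CPM (log2 fold change 0.07, standard error 0.09, edgeR adjusted p = 0.953), and leaving out 1 library gave 0.0092 (without 400_1) to 0.12 (without 394_1). *Gm45205* shares 485 exon bases with *Pycard* on the opposite strand and had 3 to 21 counts per library. How strand was handled in counting is not given in the sources used here.

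*Casp1*, the protease of the canonical inflammasome (chr9:5298517-5307265, plus strand), ranged from 56.0 to 98.2 CPM in PBS and from 67.2 to 82.9 CPM in GA. *Casp4*, the mouse caspase-11 that binds bacterial lipopolysaccharide (chr9:5308828-5336783, plus strand), ranged from 13.2 to 19.1 CPM in PBS and from 15.5 to 18.2 CPM in GA. Both GA ranges lay within the PBS ranges. Their log2 fold changes were -0.03 with a standard error of 0.12 and -0.05 with a standard error of 0.11, and leaving out 1 library turned the sign of both, to 0.071 for *Casp1* and 0.0045 for *Casp4* without 388_4. *Gsdmd*, the substrate of both (chr15:75862327-75867408, plus strand), stood at 306, 319, 272, 202 and 155 CPM in PBS and between 254 and 301 CPM in GA. The 2 lowest values were in PBS libraries 388_4 and 388_5, and the log2 fold change was 0.13 with a standard error of 0.16, or 0.0058 without 388_5, 0.065 without 388_4 and 0.23 without 388_2.

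*Il1b* (chr2:129364570-129371139, minus strand) encodes the precursor of IL-1β and is induced by NF-kB. It stood at 13.1, 23.0, 39.5, 14.0 and 27.9 CPM in PBS, 14.7 and 24.6 CPM in GA 394, and 24.2, 37.7 and 28.4 CPM in GA 400. Both treatments spanned most of the range, with a log2 fold change of 0.15 and a standard error of 0.29 (edgeR adjusted p = 0.970), which was -0.024 without 400_2, -0.0069 without 388_1, 0.0074 without 388_4 and 0.41 without 388_3. The neutrophil marker sum, given because neutrophils also express *Il1b*, was 446 CPM in 388_3 and 18.6 CPM in 400_2, the libraries with the highest *Il1b*. Its part in the *Il1b* values was not tested. *Il1bos* shares 25 exon bases with *Il1b* on the opposite strand and had 2 to 43 counts per library. *Il18* (chr9:50554827-50581840, plus strand) was the steadiest gene of the 10, from 23.4 to 28.8 CPM in PBS and from 23.8 to 26.4 CPM in GA (log2 fold change -0.03, standard error 0.09, or 0.0065 without 388_4).

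The genes differed in how far libraries of the same treatment lay apart. The within-group SD of log2 CPM was 0.104 for *Il18*, above that of 10.6% of the genes tested, and 0.664 for *Nlrc4*, 0.587 for *Il1b* and 0.423 for *Nlrp3*. The median over all genes tested was 0.219. The highest library exceeded the lowest by 3.02 times for *Il1b*, 2.52 times for *Nlrp3* and 1.23 times for *Il18*. Library 388_5 held the lowest value of 6 of the 10 genes (*Nlrp1b*, *Aim2*, *Casp1*, *Casp4*, *Gsdmd* and *Il18*), where it held the lowest value of 15.1% of all genes tested. Library 388_4 held the highest value of 4 (*Nlrp1b*, *Casp1*, *Casp4* and *Il18*), beside 20.6% of all genes tested, and also the highest marker sums of border-associated macrophages (258 CPM), monocytes (90.9 CPM) and endothelial cells (75.9 CPM). The microglial sum was highest in 388_5, at 66373 CPM. These 2 libraries also had the highest share of mitochondrial counts, 0.180% in 388_4 and 0.175% in 388_5, beside 0.129% to 0.152% in the other libraries. The part of these cells and of this share was not tested.

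**Figure D3:**
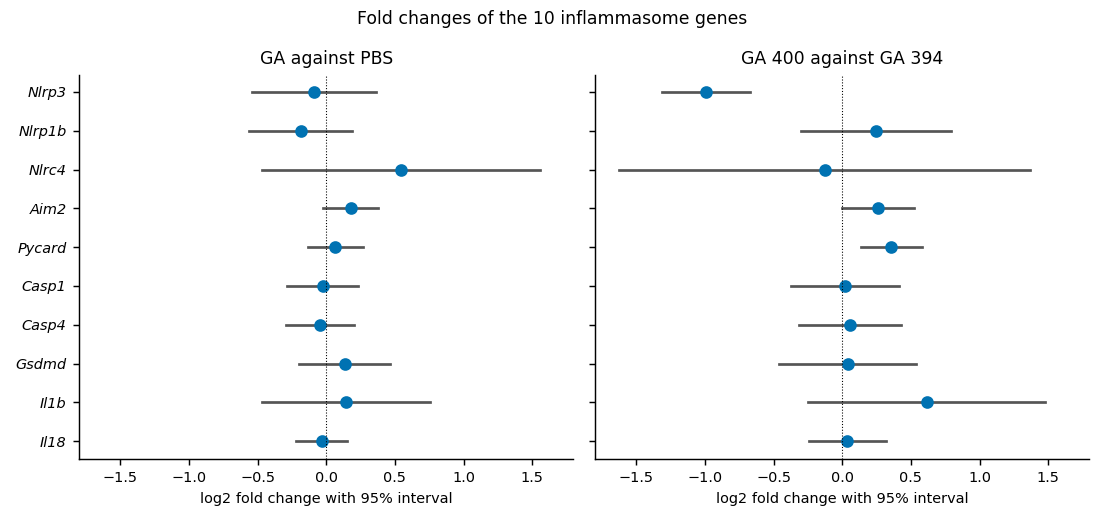
log2 fold changes of the 10 genes with 95% intervals from the edgeR fits, for GA against PBS (left, 5 libraries each) and for GA 400 against GA 394 (right, 3 against 2 libraries). All 10 intervals on the left include 0, and on the right those of *Nlrp3* (-1.32 to -0.67) and *Pycard* (0.13 to 0.58) do not.

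The second comparison set the 3 GA libraries of prefix 400 against the 2 of prefix 394. *Nlrp3* was lower in GA 400, at 61.5 ± 5.34 CPM against a mean of 123 CPM, a log2 fold change of -0.99 with a standard error of 0.15. Its unadjusted p of 1.4e-05 had rank 3 among the genes tested, but the adjusted p was 0.0683 in edgeR, above the threshold. *Pycard* was 155 ± 8.60 CPM in GA 400 against a mean of 121 CPM in GA 394, a log2 fold change of 0.36 with a standard error of 0.10 (edgeR adjusted p = 0.516). None of the 10 genes passed the adjusted threshold (0.0138% of all genes tested, namely *Myc* and *Fkbp5*), and *Nlrp3* and *Pycard* had an unadjusted p under 0.05 (5.48% of all genes tested). With DESeq2, which called 0.39% of the genes with an adjusted p, *Nlrp3* was called at an adjusted p of 6.4e-06, and over all alternatives its adjusted p ran from 5.2e-06 to 0.383.

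The libraries of the prefixes did not overlap for 4 of the 10 genes (*Nlrp3* lower, and *Nlrp1b*, *Aim2* and *Pycard* higher, in GA 400), beside 27.7% of all genes tested. *Nlrp3* and *Pycard* were the 2 of the 10 whose GA 394 and GA 400 libraries lay on opposite sides of all PBS libraries, beside 0.166% of all genes tested. For *Pycard* this rests on a small gap, between 122.0 CPM in 394_2 and 122.1 CPM in 388_4. Against PBS alone, the log2 fold change of *Nlrp3* was 0.43 with a standard error of 0.15 in GA 394 and -0.56 with a standard error of 0.12 in GA 400, and that of *Pycard* was -0.15 with a standard error of 0.11 and 0.20 with a standard error of 0.09. These 2 comparisons share the PBS libraries. Neither passed the adjusted threshold for any of the 10 genes, as for 0% of the 15537 and 0% of the 15108 genes tested in them. The other 8 genes had log2 fold changes between GA 400 and GA 394 from -0.13 for *Nlrc4* to 0.62 for *Il1b*, whose standard errors were 0.69 and 0.40. The *Il1b* value was 0.29 without 394_1 and 1.03 without 394_2.

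**Figure D4:**
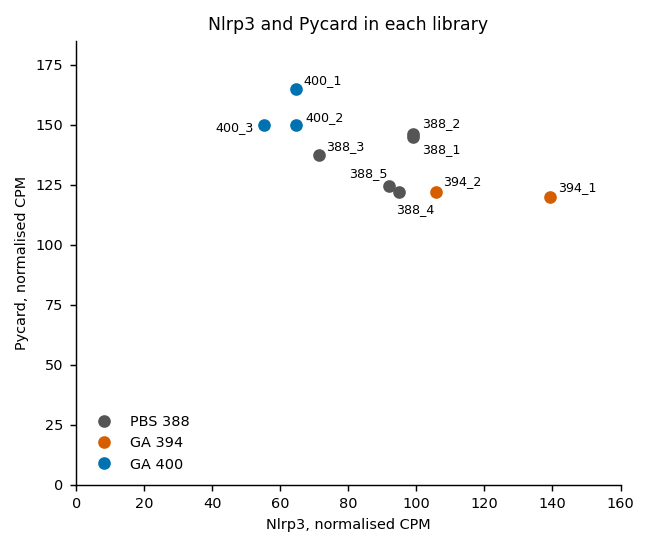
Normalised CPM of *Nlrp3* (x axis) and *Pycard* (y axis) in each of the 10 libraries, labelled by title. The GA 394 libraries lie to the right of the PBS libraries and the GA 400 libraries to the left and above, at 150 to 165 CPM of *Pycard*.

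Other gene lists are given for the same split of the GA libraries. The summed level of 15 immediate early genes, which rise within minutes of cell stress or handling, was 1074 and 1511 CPM in GA 394, 843 to 980 CPM in GA 400 and 850 to 1279 CPM in PBS. Of the 14 tested, 11 were lower in GA 400, 4 of them with an unadjusted p under 0.05, which 5.48% of all genes tested had. *Jun*, an AP-1 subunit with a large part of that sum, was 275 and 509 CPM in 394_1 and 394_2, 167 ± 8.13 CPM in GA 400 and 231 ± 48.6 CPM in PBS (400 against 394 log2 fold change -1.23, edgeR adjusted p = 0.152). *Myc*, a growth regulator, was 146 and 166 CPM in GA 394, 58.5 to 71.1 CPM in GA 400 and 75.7 to 103 CPM in PBS. *Fkbp5*, a glucocorticoid target, was 260 and 247 CPM in GA 394, 69.0 to 88.7 CPM in GA 400 and 83.9 to 176 CPM in PBS. The 8 border-associated macrophage markers summed to 49.8 and 89.7 CPM in GA 394 and 96.1 to 198 CPM in GA 400, both within the PBS range of 49.7 to 258 CPM, with all 8 higher in GA 400 and 1 of them (*Pf4*) at an unadjusted p under 0.05. The 10 neutrophil markers summed to 42.3 and 169 CPM in GA 394 and 10.9 to 105 CPM in GA 400, and the 8 tested were lower in GA 400, 0 of them with an unadjusted p under 0.05 in edgeR. The summed astrocyte markers, 325 and 353 CPM in GA 394 and 249 to 273 CPM in GA 400, were almost entirely *Slc1a3* (336 against 258 CPM), and the other 3 tested were higher in GA 400. The part of these in the *Nlrp3* and *Pycard* values was not tested.

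Beyond the 10 genes, a pathway list of 49 symbols had 47 in the table and 40 that were tested. In GA against PBS, 26 of the 40 were higher and 14 lower, none with an adjusted p under 0.05, with a median log2 fold change of 0.07. An unadjusted p under 0.05 was reached by 4 higher genes and 1 lower gene, and by 5.75% of all genes tested. The sensor-related genes among them were *Naip5*, a receptor of flagellin for *Nlrc4* (27.6 ± 3.94 CPM in PBS and 35.0 ± 3.39 CPM in GA, log2 fold change 0.34), *Nlrp1a* (25.6 ± 3.48 and 30.6 ± 0.924 CPM, 0.26) and *Nlrc3*, a negative regulator of innate signalling (2.40 ± 1.28 and 4.07 ± 0.887 CPM, 0.76). *Sigirr*, an inhibitory receptor of the IL-1 family, was 1.12 ± 0.402 CPM in PBS and 1.98 ± 0.345 CPM in GA. *Serpinb1a*, a protease inhibitor abundant in neutrophils, was 1.63 ± 0.818 CPM in PBS and 0.447 ± 0.420 CPM in GA, from 0 to 82 counts per library. The adjusted p of these 5 genes was 0.847 or 0.854 in edgeR. *Naip5* and *Nlrp1a* have near copies among which reads could be split. *Serpinb1a* was lower in the treatment with the lower neutrophil sum, and the part of neutrophils was not tested.

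By role, the highest levels per length outside the 10 genes were those of *Naip2* (14.2 CPM per kb) and the transcribed pseudogene *Nlrp1c-ps* (8.58) in the sensor list, *Casp8* (85.3) and *Casp12* (2.08) among caspases, *Ninj1* (43.6), which ruptures the membrane after gasdermin pores form, and *Gsdme* (2.11). Among licensing genes *Txnip* (165) and *Irf8* (136 CPM per kb) led, and among receptors and brakes *Cd14* (537) and *Trim30a* (12.05 CPM per kb). By the longest transcript *Irf8* (277 CPM per kb) was above *Txnip* (183 CPM per kb), and *Gsdme* was 5.81 CPM per kb. *Il1a*, at 64.2 CPM per kb, was higher per length than *Il1b*. Treatment means of these abundant genes were close. *Casp8* was 251 ± 16.9 CPM in PBS and 242 ± 4.43 CPM in GA, *Il1a* 127 ± 19.7 and 127 ± 6.73 CPM, *Txnip* 518 ± 32.6 and 515 ± 14.3 CPM, and *Cd14* 906 ± 177 and 954 ± 176 CPM. *Nlrp6* and *Nlrp2* had 0 counts in every library, and *Mefv*, *Nlrp10*, *Nlrp12*, *Il33* and *Il18r1* did not pass the filter.

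**Figure D5:**
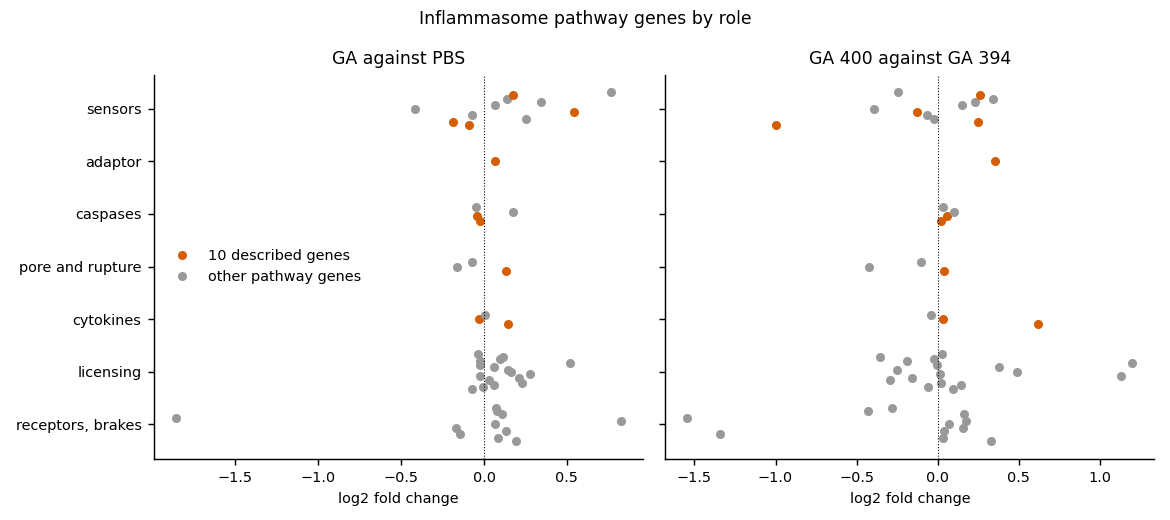
log2 fold changes (x axis) of the tested pathway genes by role, with the 10 described genes in orange and the other 40 in grey, for GA against PBS (left) and GA 400 against GA 394 (right). Most genes lie near 0 on the left, and *Nlrp3* at -0.99 is the lowest sensor on the right.

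In GA 400 against GA 394, 21 of the 40 pathway genes were higher and 19 lower, and 4 higher and 2 lower genes had an unadjusted p under 0.05 (5.48% of all genes tested). These, named after their values were seen, include *Zbp1* (4.90 CPM in GA 394 and 11.3 ± 3.72 CPM in GA 400), *Gbp2* (8.97 and 19.7 ± 6.66 CPM) and *Irgm1* (67.1 and 87.1 ± 11.5 CPM). Of the other guanylate-binding proteins in the list, *Gbp5* was 9.74 and 13.6 CPM, *Gbp7* 90.8 and 76.3 CPM, and *Gbp3* 32.8 and 33.1 CPM, none with an unadjusted p under 0.05. *Naip6* was also higher, and *Gsdme* and *Dpp9*, a protease that restrains NLRP1, were lower, with log2 fold changes of 0.34, -0.42 and -0.36. No adjusted p passed the threshold in this list.

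The 5 genes whose log2 CPM followed *Nlrp3* most closely over the 10 libraries were *Tafa1* (Pearson r = 0.91), *Pik3r1* (0.91), *Spry1* (0.90), *Ahdc1* (0.89) and *Gm44001* (0.89). Those closest to *Il1b* were *Retreg2* (0.92), *Metrnl* (0.92), *Chst2* (0.91), *Erlin2* (0.91) and *Prkrip1* (0.90). These are descriptions of genes ranked out of 14481 over libraries that share depth and preparation, with no test.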

How the data were processed

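RNA of sorted microglia was amplified with a SMARTer kit and sequenced by the authors. The authors deposited unnormalized read counts for each gene. The submitters' processing notes name bcl2fastq 2.19.0, fastp 0.20.0, STAR 2.7.0f, Subread 1.6.4 with featureCounts, DESeq2 and GRCm38.p6, with no roles. The annotation release and strand setting are not given in the sources used here. As no molecular identifiers were used, PCR copies are counted as reads.

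Counts were analysed with R 4.3.3 (DESeq2 1.42.0, edgeR 4.0.16, limma 3.58.1) and drawn with Python 3.11.15 and matplotlib 3.10.9. Genes were filtered by filterByExpr (minimum count 10), normalized by TMM and tested with the quasi-likelihood F-test of edgeR. The Benjamini-Hochberg adjustment ran over 14481 genes, at a threshold of 0.05. GA was compared with PBS without covariates, and prefix 400 with prefix 394 in a fit with 1 mean per prefix. Exact permutation tests of single genes used log2(CPM + 0.1), and the smallest p they allow is 0.00794. Scripts were tested on simulated data. No library was left out, 0 columns lacked a sample, and the 45 pairs of libraries differed by more than sampling noise (chi-square per degree of freedom 13.0 to 50.9).

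Lengths and positions come from GENCODE M21. The members and lists were chosen with earlier results of these data known. The genes named are the 10 members, pathway genes with an unadjusted p under 0.05 in GA against PBS, the 2 with the highest level per length in each role, and the 5 most like *Nlrp3* and *Il1b*. Other pathway genes, marker genes, *Myc* and *Fkbp5* are named after their values were seen. Alternatives for GA against PBS were DESeq2, limma-voom, DESeq2 size factors, other filters, each library left out, a replicate block and single prefixes. Those for prefix 400 against 394 were DESeq2, GA libraries alone and each GA library left out. Another pseudocount and transcript lengths were tried for single values and levels. A DESeq2 setting with independent filtering at 0.05 was added after the data were seen.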

Additional observations from a re-analysis of the deposited data

Results flagged for a closer look

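In 20 groups of 5 libraries examined (10 genes in each treatment), 2 held a library far from the others, where chance gives about 1 in 20 groups. *Nlrp3* in PBS library 388_3 was 71.4 CPM, and the gap to the nearest library took a share of 0.738 of the group's range against a critical value of 0.71. *Casp4* in GA library 400_3 was 18.2 CPM, with a gap share of 0.713.

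The GA libraries of both prefixes lay on opposite sides of all PBS libraries for *Nlrp3* and *Pycard*. Between prefix 400 and prefix 394 the log2 fold change was -0.99 for *Nlrp3* (edgeR adjusted p = 0.0683) and 0.36 for *Pycard* (edgeR adjusted p = 0.516), so edgeR called neither, while DESeq2 with its defaults called *Nlrp3* (adjusted p = 6.4e-06) and not *Pycard* (0.137). The smallest group holds 2 libraries.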

How the results depend on the processing

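In GA against PBS, edgeR called 0 genes, with 833 at an unadjusted p under 0.05. DESeq2 with its defaults called 2 genes (*Gm1070* and *Dcstamp*, neither a member), as did the added setting of its independent filtering at 0.05. Leaving out 1 library gave 0 to 1 calls, the 1 being *Gm15920* without 394_1. No setting called a member in this comparison. Unadjusted counts were 503 with GA 394 alone and 1901 without a filter. With GA 394 alone the log2 fold change reversed for *Nlrp3* (0.43), *Pycard* (-0.15) and *Il1b* (-0.25). The title number as a replicate block gave 0 calls and reversed *Pycard* (-0.014) and *Gsdmd* (-0.13). Libraries sharing a number had correlations of their deviations from -0.109 to 0.0438 over 5 pairs, beside -0.109 to 0.0667 over the 20 other pairs. The labels do not say what the number stands for, and these correlations cannot show whether it pairs the libraries. Leaving out 1 library gave ranges that cross 0 for *Nlrp3* (-0.33 to 0.036), *Casp1* (-0.12 to 0.071), *Casp4* (-0.12 to 0.0045), *Il18* (-0.064 to 0.0065), *Il1b* (-0.024 to 0.41) and *Nlrp1b* (-0.30 to 0.014). A minimum of 10 counts in every library gave no value for *Nlrc4*. *Nlrp3* changed sign without any 1 of the 3 GA 400 libraries.

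In 400 against 394, edgeR called 2 genes, DESeq2 with its defaults 64 and the added DESeq2 setting 73. Both DESeq2 settings called 1 member, *Nlrp3* (-0.996, adjusted p = 6.4e-06 and 5.2e-06). A fit of GA libraries only gave 2 calls and 1528 unadjusted, with *Aim2* and *Il1b* among the latter (edgeR adjusted p = 0.324 and 0.434). Leaving out 1 library gave 0 calls without 394_1, 1 without 400_2 and up to 3 otherwise (*Fkbp5* was lost without any 1 GA library and *Myc* without 394_1 or 394_2), and *Nlrp3* then ranged from -1.18 to -0.78. Ranges crossed 0 for *Casp1* (-0.10 to 0.15), *Casp4* (-0.017 to 0.093), *Gsdmd* (-0.022 to 0.097), *Il18* (-0.038 to 0.11) and *Nlrc4* (-0.68 to 0.80). Without 394_1 or 394_2, 1 library of that prefix is left and is assumed to vary like the others. The cause of these changes was not tested.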
